A study of Caenorhabditis elegans with 4 samples.

Results

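The inducible heat shock genes described here are 9 genes of the nematode Caenorhabditis elegans that encode chaperones of the small heat shock protein and HSP70 families. The list was drawn up with earlier results of these data known. Its members were found by name, as rows whose sequence name equals that of a listed gene or that name with an isoform letter. Each gene was measured by 1 transcript, so there were 9 members among 19380 named genes. They comprise 6 hsp-16 genes, namely hsp-16.1 (T27E4.8), hsp-16.11 (T27E4.2), hsp-16.2 (Y46H3A.3), hsp-16.41 (Y46H3A.2), hsp-16.48 (T27E4.3) and hsp-16.49 (T27E4.9). The other 3 are the HSP70 genes hsp-70 (C12C8.1), F44E5.4 and F44E5.5.

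Total RNA of early embryos was labelled with Cy3 and measured on 4 single-colour NimbleGen arrays, replicates 1 to 4 of the labels, called arrays 1 to 4. All 4 belong to a single group, strain PFR40 with the allele tm1489 of hpl-2, a gene for a heterochromatin protein 1 homolog. The labels give the worms as hermaphrodites with few males, grown in S-basal liquid culture and bleached to release the embryos. They name no heat treatment, and the growth protocol names N2, the wild-type strain, where the genotype labels name the mutant. Wild-type arrays were not analysed here, so the data hold no contrast between genotypes or between heated and unheated embryos. What they can show is whether these genes gave signal above background and how far the arrays differed. Nothing in the labels ties the replicates to separate cultures, so every p-value measures only the spread between these samples, which may be technical.

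The heat shock response is the induction of chaperone genes by the transcription factor HSF-1 when proteins unfold, for example in heat. Small heat shock proteins such as the HSP-16 proteins bind unfolding proteins and keep them from aggregating, and HSP70 chaperones use ATP to refold them. In C. elegans the hsp-16 genes are known for low expression without stress and strong induction by heat, and hsp-16.2 reporters are widely used as stress sensors. In the RefSeq gene table hsp-16.1, hsp-16.48, hsp-16.49 and hsp-16.11 follow each other on chromosome V with no other protein-coding gene between them. A separate pair on the same chromosome holds hsp-16.2 and hsp-16.41. F44E5.4 and F44E5.5 are neighbours on chromosome II, and hsp-70 lies on chromosome I.

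All 9 genes gave signal above background, and all 9 differed between arrays in the same direction, lowest on array 1 and highest on array 4. As background served, on each array, the 95th percentile of log2 signal among chemoreceptor genes, which encode receptors of sensory neurons. It came to signals of 272, 349, 306 and 357 on arrays 1 to 4. Against it, 55.1% of all 23181 transcripts were called above (limma, two-sided, Benjamini-Hochberg adjusted p under 0.05). In the same fit 8369 of the 23181 were called below. The members' median was 4.44 on the log2 scale above background, beside 0.86 for all transcripts. The highest limma adjusted p among the 9 was 0.000471, for hsp-70. Signals depend on each probe's own brightness, so neither these values nor percentiles of signal rank genes by their amount of RNA.

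hsp-16.1 gave normalized signals of 5584, 11827, 15101 and 19737 on arrays 1 to 4. The signal on array 4 was 3.53 times that on array 1, and array 2 alone was 2.12 times array 1. On the log2 scale the gene lay 5.21 ± 0.65 above background (SD, n = 4; limma adjusted p = 3.72e-08). Its near-identical copy hsp-16.11 gave 5511, 11693, 15054 and 19299. These paired signals were at most 2.27% apart on any array. The sources used here do not say whether the probes can tell the copies apart. Both genes are counted as members, but their signals are not taken as independent.

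hsp-16.2, the gene of the common stress reporter, gave 2218, 5068, 6100 and 7802 on arrays 1 to 4. It lay 3.91 ± 0.64 above background on the log2 scale (SD, n = 4; limma adjusted p = 3.00e-07). Its neighbour hsp-16.41, which encodes a small heat shock protein of the other hsp-16 type, gave 1134, 2680, 3218 and 3860. This gene lay 2.96 ± 0.64 above background (SD, n = 4; limma adjusted p = 2.17e-06). The range from array 1 to array 4 was 3.52-fold for hsp-16.2 and 3.40-fold for hsp-16.41. Array 1 stood lowest in both, at less than the signal of any other array by a factor of 2.29 and 2.36 or more.

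hsp-16.48 gave 4342, 6522, 8083 and 10094 on arrays 1 to 4, and its near-identical copy hsp-16.49 gave 4297, 6201, 7772 and 10311. The copies were at most 5.18% apart on any array. They lay 4.44 ± 0.40 and 4.41 ± 0.41 above background on the log2 scale (SD, n = 4; limma adjusted p = 7.43e-09 and 9.72e-09). Array 1 was again lowest and array 4 highest, but the ranges were narrower, at 2.32-fold and 2.40-fold.

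Neighbouring hsp-16 genes did not all move by equal factors. The signal of hsp-16.1 over that of hsp-16.48 was 1.29 on array 1 and 1.81, 1.87 and 1.96 on arrays 2 to 4. For the mirror pair hsp-16.11 over hsp-16.49 the same ratio was 1.28 on array 1 and between 1.87 and 1.94 on the others. These genes are the near-identical copies of hsp-16.1 and hsp-16.48, so the mirror ratio is not an independent observation. The ratio of hsp-16.2 to hsp-16.41 stayed between 1.89 and 2.02 on all 4 arrays. The size of such a ratio depends on the probes, whereas its change between arrays shows unequal change of the genes' signals. The unequal step lay between array 1 and the rest, and from array 2 to array 4 hsp-16.1 and hsp-16.48 differed by similar factors, 1.67 and 1.55. hsp-16.2 followed hsp-16.1 from another locus, with a ratio of hsp-16.1 to hsp-16.2 between 2.33 and 2.53.

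hsp-70, the HSP70 gene known for strong induction by heat, had the widest range of the 9. It gave 404, 1324, 1751 and 2738 on arrays 1 to 4, a 6.79-fold range. On array 1 its log2 signal exceeded background by 0.57, and on arrays 2 to 4 it lay 1.92, 2.52 and 2.94 above it. The mean was 1.99 ± 1.03 (SD, n = 4; limma adjusted p = 0.000471). Array 2 was 3.28 times array 1, and array 4 was 2.07 times array 2. Its log2 SD of 1.18 over the arrays was larger than that of 99.8% of transcripts above background.

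F44E5.4 and F44E5.5, close copies of each other among the HSP70 genes, had the narrowest ranges. F44E5.4 gave 25625, 34640, 35401 and 38665 on arrays 1 to 4, a 1.51-fold range, and F44E5.5 gave 24942, 34892, 35874 and 39586, a 1.59-fold range. Array 1 stood below the other arrays, and arrays 2 and 3 were within 1.03-fold of each other. They lay 6.70 ± 0.13 and 6.71 ± 0.16 above background on the log2 scale (SD, n = 4; limma adjusted p = 2.58e-10 for both). Their signals were between the 98.7th and the 99.9th percentile of their arrays, whose highest signals were 49725 to 50520. The scanner's ceiling is not given in the sources used here, and whether a ceiling narrowed the ranges of this pair was not tested.

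**Figure D1:**
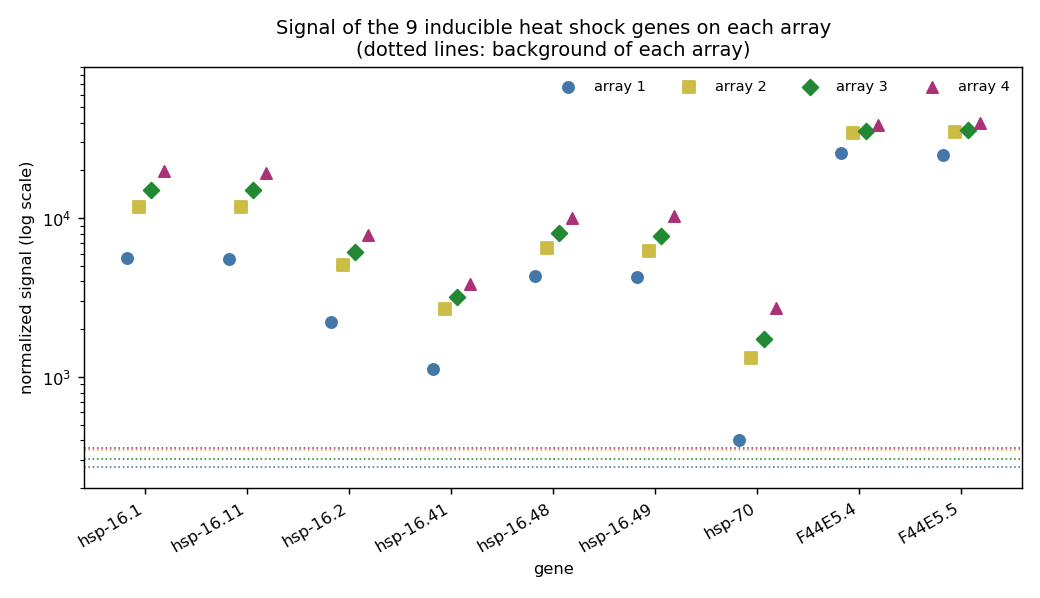
Normalized signal of the 9 inducible heat shock genes on arrays 1 to 4, on a log scale, with 1 point for each array and a dotted line for the background of each array. In each gene the point of array 1 is lowest and that of array 4 highest, and hsp-70 on array 1, at 404, is the point nearest to its background of 272.

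The ranking of the arrays was shared by all 9 genes. Array 1 was lowest, followed by arrays 2 and 3, with array 4 highest. This complete ranking was found in 6.56% of the 12774 transcripts above background, and the extremes alone, array 1 lowest and array 4 highest, in 15.3%. Array 1 was the lowest array for 51.4% of transcripts above background and the highest for 30.3%. With each array's own background subtracted, the extremes held for 7 of the 9, because F44E5.4 and F44E5.5 were then highest on array 3, at 6.86 and 6.87 against 6.76 and 6.79 on array 4. Of transcripts above background 1.31% showed these extremes on that scale. With each array centred on its median, 8 of the 9 kept the complete ranking, which 7.49% of transcripts above background showed, and all 9 kept the extremes, which 20.2% showed. The 9 genes are fewer than 9 independent observations, since 6 of them form the 3 pairs of close copies. The replicate numbers carry no order, and no test was made of differences between single arrays of a group.

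The sizes of the differences were also large beside most transcripts. The highest signal was at least 2 times the lowest in 7 of the 9 genes, and in 7.30% of transcripts above background. The median range was 3.40-fold for the members and 1.19-fold for transcripts above background. Ranges of at least 2-fold with the complete ranking were found in 34 of the 12774 transcripts above background, the 7 members included. The log2 SDs of hsp-16.1, hsp-16.11, hsp-16.2 and hsp-16.41 were 0.78 to 0.79, those of hsp-16.48 and hsp-16.49 were 0.52 and 0.53, and those of F44E5.4 and F44E5.5 were 0.26 and 0.29. The median over transcripts above background was 0.11. Much of the range came from array 1. Without it the median range of the members was 1.55-fold, beside 1.09-fold for transcripts above background, and hsp-70 alone kept a range of at least 2-fold. Arrays 2, 3 and 4 still ranked the same way in 9 of 9 genes, which 13.1% of transcripts above background did.

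**Figure D2:**
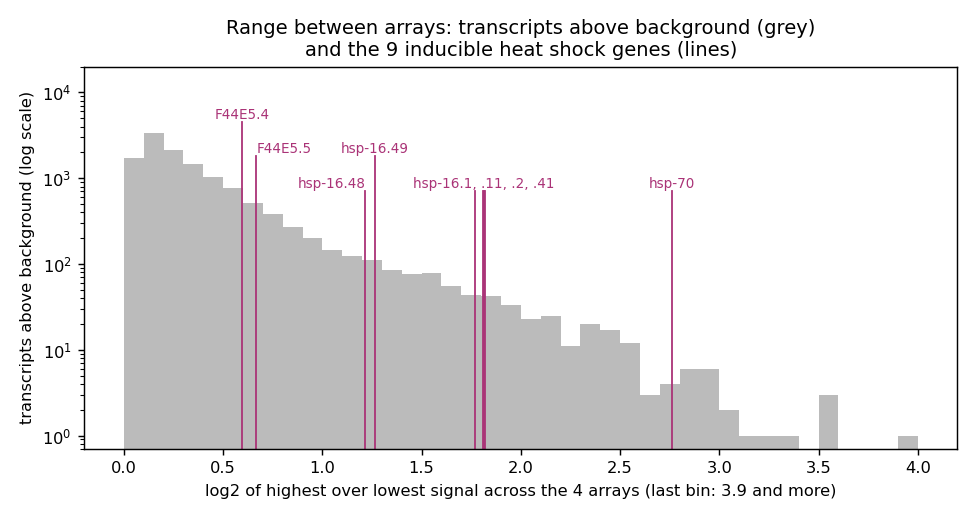
Number of transcripts above background (log scale) by the log2 of their highest over their lowest signal across the 4 arrays, in grey bins, with a line at the value of each of the 9 inducible heat shock genes. The HSP70 genes F44E5.4 and F44E5.5 lie at 0.59 and 0.67, hsp-16.48 and hsp-16.49 at 1.22 and 1.26, the other hsp-16 genes between 1.77 and 1.82, and hsp-70 at 2.76.

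hsf-1 itself gave nearly equal signals on all arrays, and its known regulators differed by up to 1.26-fold. All 4 genes of this list were above background, where 51.9% of named genes were. hsf-1 gave 16111, 16257, 16214 and 16032 on arrays 1 to 4, a 1.01-fold range, and lay 5.66 ± 0.18 above background on the log2 scale (SD, n = 4). hsb-1, which encodes a protein that binds and restrains HSF-1, gave 8916 to 9845 over the 4 arrays and lay 4.87 above background. ddl-1 and ddl-2, whose products act with HSB-1 on HSF-1 in worms, had ranges of 1.17-fold and 1.26-fold and lay 3.65 and 1.54 above background. ddl-1 gave 3597, 4049, 4153 and 4225 on arrays 1 to 4, the same complete ranking as the 9 inducible genes, and ddl-2 was highest on array 2. These are RNA signals, and the activity of the HSF-1 protein was not measured.

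The signals of most constitutive chaperones were steady too. All 19 cytosolic chaperones and co-chaperones were above background, beside 51.9% of named genes. Their median range was 1.06-fold. hsp-1, the constitutive HSP70 of the cytosol, gave 35366 to 36818 over the 4 arrays and lay 6.83 above background on the log2 scale. Its range was 1.04-fold, at signals as high as those of F44E5.4 and F44E5.5. Whether a ceiling narrowed the range of hsp-1 or of other chaperones with signals as high was not tested. hsp-90, the HSP90 chaperone gene, and hsp-110, an HSP70 partner gene, lay 6.50 and 5.93 above background, with ranges of 1.06-fold and 1.18-fold. The HSP40 co-chaperone gene dnj-13, at 5.07, had a 1.25-fold range and was highest on array 1. The exception in the list was unc-23, a co-chaperone of the BAG family needed for muscle attachment in worms. It lay 2.85 above background and gave 4204, 1232, 2329 and 2311 on arrays 1 to 4, with array 1 highest.

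The chaperones of organelles also differed little between arrays. All 9 were above background, beside 51.9% of named genes, and their widest range was 1.15-fold. hsp-3 and hsp-4, the HSP70 chaperones of the endoplasmic reticulum, lay 6.73 and 6.36 above background on the log2 scale, with ranges of 1.05-fold and 1.11-fold. enpl-1, the HSP90 gene of the same organelle, lay 6.66 above it. The mitochondrial chaperone genes hsp-6 and hsp-60 lay 5.61 and 5.62 above background, with ranges of 1.09-fold and 1.15-fold. hsp-4 and hsp-6 are the usual reporters of the stress responses of these organelles.

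The small heat shock proteins outside the 9 genes did not share one pattern. Of 10 measured, 6 were above background, 3 below and 1 was not told apart from it. Beside this, 51.9% of named genes were above and 8369 of all 23181 transcripts below. sip-1, a small heat shock protein known from oocytes and embryos and named after its values were seen, lay 6.85 above background on the log2 scale with a 1.03-fold range. hsp-12.1, hsp-12.2 and hsp-25, the last known from muscle attachment structures, were highest on array 1, the reverse of the 9 genes there. hsp-12.1 gave 1839, 426, 863 and 618 on arrays 1 to 4, and hsp-25 gave 3598, 1257, 1872 and 1522. hsp-12.2 gave 1106, 466, 610 and 408 and lay 0.91 above background (limma adjusted p = 0.0111). The sequences F08H9.3 and F08H9.4, which the gene table names hsp-16.20 and hsp-16.21, were lowest on array 1 and highest on array 4. hsp-16.20 gave 732, 1062, 865 and 1193, a 1.63-fold range, and hsp-16.21, named after its values were seen, gave 316, 413, 408 and 449, a 1.42-fold range. In both, array 2 was above array 3. hsp-12.3, hsp-12.6 and hsp-17 were below background, at -0.48, -0.97 and -0.64. hsp-12.1 lay 1.33 above it and hsp-25 2.57 above it. With the 99th percentile of the chemoreceptors as background, 3 of the 10 were above, where 47.0% of all transcripts were.

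Genes induced by other stresses were mostly near or below background. Of 12, 4 were above background, 5 below and 3 not told apart. Beside this, 51.9% of named genes were above and 8369 of all 23181 transcripts below. The widest range among the 4 above was 1.17-fold. gcs-1, an enzyme of glutathione synthesis, lay 4.46 above background on the log2 scale, the arsenite-inducible gene aip-1 4.75, the autophagy receptor gene sqst-1 5.19 and the osmotic stress gene gpdh-1 2.76. The metallothionein genes mtl-1 and mtl-2 lay at -0.15 and -0.74, the first of them not told apart from background (limma adjusted p = 0.154). The cadmium-responsive gene cdr-1 lay at -1.14. Taking as background the 75th percentile of the chemoreceptors, or the 25th of all genes, 9 of the 12 were above, where 72.6% and 70.7% of all transcripts were.

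Over these 5 lists, 42 of 54 genes were above background, or 77.8%, beside 51.9% of named genes. Array 1 was lowest and array 4 highest in 9 of the 54, or 16.7%, beside 15.3% of transcripts above background. These shares are of unlike sets, since the 54 include 8 genes below background and 4 not told apart from it. A range of at least 2-fold was found in 6 of the 54, beside 7.30% of transcripts above background. Of these 6, unc-23, hsp-12.1, hsp-12.2, hsp-25 and hsp-43 were highest on array 1, and gst-4, a glutathione transferase gene, was highest on array 2. hsp-43 and gst-4 were named after their values were seen, and neither was told apart from background. None of the 6 was lowest on array 1 and highest on array 4. The median range over the 54 was 1.11-fold, against 3.40-fold for the 9 inducible genes.

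Markers of some tissues and stages moved with the arrays as well, and their part in the differences of the heat shock genes was not tested. The maternal list had 10 of 10 genes above background and the early zygotic list 6 of 10, where 51.9% of named genes were. All 12 muscle genes were highest on array 1, as were 30.3% of transcripts above background. The muscle genes' summed signal was 75074 there and 28298, 41220 and 32660 on arrays 2 to 4. Among them unc-22, named after its values were seen, was not told apart from background. hlh-1 and unc-120, muscle regulators, had ranges of 1.31-fold and 1.40-fold, and myo-3, a muscle myosin gene, gave 4319, 735, 1905 and 1213. Of the 9 cuticle genes 7 were highest on array 1, beside the same 30.3% of transcripts above background. The collagen genes dpy-7 and dpy-3 had ranges of 2.78-fold and 5.54-fold. The collagen gene dpy-2 gave 5824, 1495, 2701 and 2044 on arrays 1 to 4. The collagen gene rol-6 was below background. In the pharynx list 2 of 7 genes were above background. Its regulators pha-4 and ceh-22 had ranges of 1.52-fold and 2.93-fold with array 1 highest, and myo-1, myo-2 and tnc-2 were below background. The 6 yolk genes of the adult intestine, vit-1, vit-2 and vit-3 among them, were below background, as were 8369 of all 23181 transcripts. The yolk genes had ranges of 1.02-fold to 1.25-fold.

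In normalized signal, most oocyte, maternal, early zygotic and sperm genes were lowest on array 1, as were 51.4% of transcripts above background. Of 10 oocyte and eggshell genes 8 were lowest on array 1 and highest on array 4, as were 15.3% of transcripts above background. The summed signal of the 10 was 76457, 109530, 110289 and 122153 on arrays 1 to 4. The exceptions were perm-2 and perm-4, of which perm-2 was below background, and perm-4, named after its values were seen, was not told apart from it. The eggshell gene cbd-1 had a 1.46-fold range. The maternal genes mex-3, pie-1 and skn-1 had ranges of 1.12-fold to 1.13-fold, and all 10 maternal genes were lowest on array 1. The early zygotic genes end-1, end-3 and med-1 were also lowest on array 1, as were 8 of the 10 genes of their list, whose median deviation there was -0.22 beside -0.11 for the maternal list. end-1 and end-3 had ranges of 1.41-fold and 1.26-fold, med-1 was not told apart from background, and hlh-25 and hlh-27 were below it. All 9 sperm genes were lowest on array 1, including msp-3, msp-10 and msp-19 with ranges of 1.61-fold, 1.51-fold and 2.89-fold. These rankings depend on the scale. With each array's own background subtracted, mex-3, pie-1, skn-1, end-1, end-3, med-1, msp-3 and msp-10 were no longer lowest on array 1. On that scale chs-1, cbd-1, egg-1 and msp-19 still were, and of the eggshell genes among them cbd-1 was highest on array 3. All 9 sperm genes are again meant in what follows. Of the 9 sperm genes, 6 were above background, where 51.9% of named genes were. spe-38 was below background, and spe-11 and ssp-9, named after their values were seen, were not told apart from it. With the 99th percentile of the chemoreceptors as background, 3 of the 9 were above, where 47.0% of all transcripts were.

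**Figure D3:**
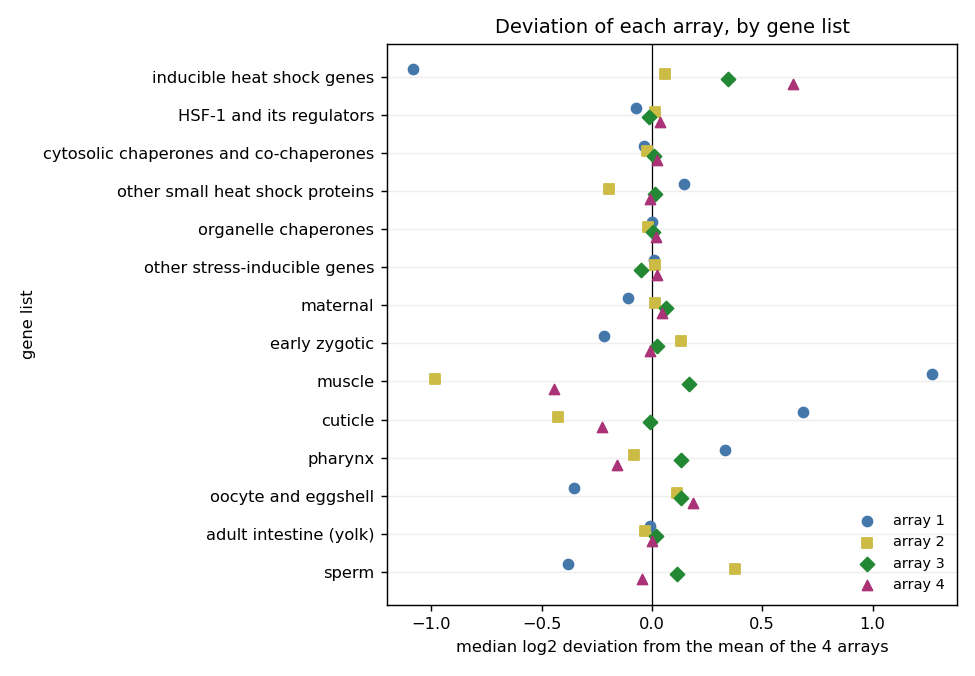
Median log2 deviation of arrays 1 to 4 from the mean of the 4 arrays, for the 9 inducible heat shock genes and 13 other gene lists, with 1 point for each array. The inducible heat shock genes lie at -1.08, 0.06, 0.34 and 0.64 on arrays 1 to 4, and the muscle genes at 1.27, -0.98, 0.17 and -0.44.

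The list medians can be set side by side, with no test. The muscle genes' median deviation was 1.27 on array 1 and -0.98, 0.17 and -0.44 on arrays 2 to 4. That of the oocyte and eggshell genes was -0.35 on array 1 and 0.11, 0.13 and 0.19 on arrays 2 to 4, the same ranking as the 9 heat shock genes at -1.08, 0.06, 0.34 and 0.64. Array 4 over array 2 was 2.07-fold for hsp-70, between 1.44-fold and 1.67-fold for the hsp-16 genes and 1.12-fold and 1.13-fold for F44E5.4 and F44E5.5. In bulk RNA, fewer cells of a type and less RNA per cell cannot be told apart.

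**Figure D4:**
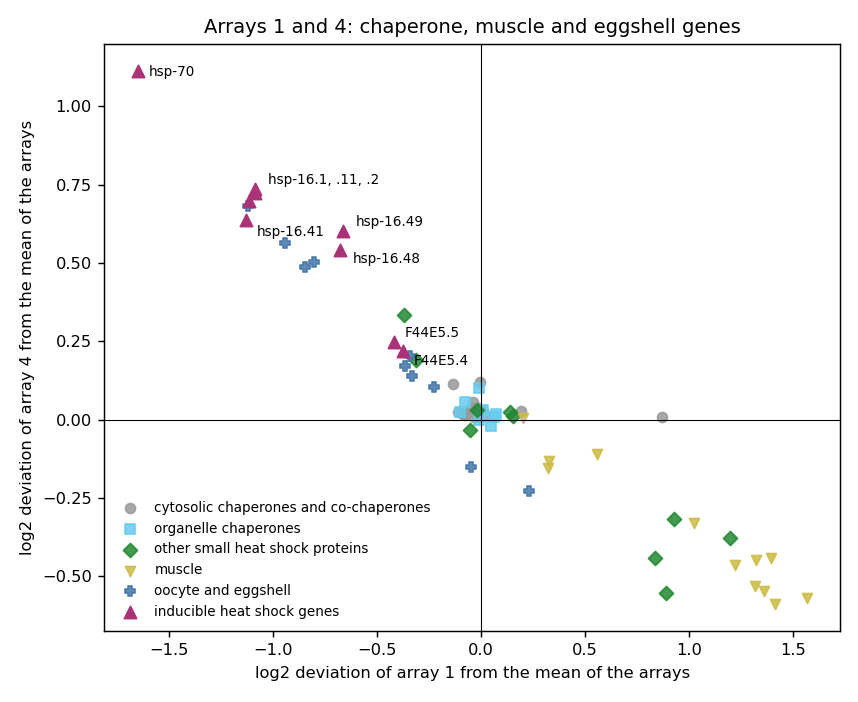
Log2 deviation of array 4 against that of array 1, each from the mean of the 4 arrays, with 1 point for each gene of 6 lists. The 9 inducible heat shock genes lie at the upper left, from 0.22 to 1.11 on array 4, together with several oocyte and eggshell genes, and the muscle genes lie at the right. The deviations of a gene sum to 0 over the arrays, so a slope downward is partly built in.

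The genes whose pattern over the 4 arrays was most like the median of the 9 members were cpg-3, chs-1, egg-1, gfat-2 and slc-17.5. Likeness was the root mean square difference between the log2 deviations of a gene and those of the members' median, taken over 10057 other named genes above background. It was 0.068 for cpg-3, 0.10 for chs-1, 0.12 for egg-1, 0.12 for gfat-2 and 0.13 for slc-17.5, and the median over all these genes was 0.62. cpg-3, which encodes an eggshell proteoglycan, gave 2424, 4717, 6244 and 7610 on arrays 1 to 4, a 3.14-fold range with the same ranking as the 9 genes. The chitin synthase gene chs-1 gave 1213, 3052, 3078 and 4221, and egg-1, an egg surface protein gene, gave 3502, 7527, 7806 and 9931. gfat-2, an enzyme gene of amino sugar synthesis, gave 1553, 3821, 3675 and 5238, with array 2 above array 3. slc-17.5, a solute carrier gene by its symbol, gave 348, 798, 959 and 1429.

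The members themselves differed in how close they lay to their own median, to which each contributed. hsp-16.1, hsp-16.11, hsp-16.2 and hsp-16.41 were within 0.034 to 0.058, closer than any of the other 10057 genes. This rank is partly built in, since the members set the median and the other genes had no part in it. No conclusion is drawn from it. hsp-16.48 and hsp-16.49 lay at 0.23 and 0.25, with 23 and 24 other genes as close. hsp-70 lay at 0.37, with 170 as close, and F44E5.4 and F44E5.5 at 0.43 and 0.40, with 434 and 286 as close. With 4 arrays, likeness rests on few values and is given as a description only.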

How the data were processed

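The authors deposited linear intensity values of 23181 transcripts for each of 4 arrays. Per the file headers and names these had been quantile normalized, with probes averaged within a transcript. The series-wide table was identical (largest difference 0). Not given in the sources used here are the scanner, the background correction, the probes per transcript and the genome build. Quantile normalization puts all arrays on 1 distribution, so a shift of most transcripts could not be seen. Averaging can hide disagreement between probes. The number of arrays limits the precision.

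Transcripts were named through the RefSeq gene table of assembly WBcel235, used for names, chromosomes and gene order only: 17151 matched as written, 5352 without the isoform letter, and 678 did not. A gene took its transcript with the highest mean. Values were put on the log2 scale after raising any below 1 to 1, which applied to 0 transcripts. Log2 signal minus the array's background (95th percentile over 1343 chemoreceptor genes) was fitted over all transcripts with limma 3.58.1 (R 4.3.3, intercept only, two-sided test against 0, Benjamini-Hochberg at 0.05). The fit was tested on simulated data with independent noise for each transcript. That cannot show how the fit behaves when many transcripts differ together between arrays. Differences between arrays were described with no test.

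The members, lists and tests were chosen with earlier results of these data known. Besides the members, the genes to be named were the first 3 measured of each list, up to 2 with the opposite call, in the stress and chaperone lists up to 2 more with the largest SD, and the 5 genes most like the members' median. Alternatives were other backgrounds, 100 added before log2, a limma intensity trend, other scalings, and each replicate left out. The counts of array rankings and their alternatives were added after the data were seen. The planned search of sequences was not run.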

Additional observations from a re-analysis of the deposited data

Results flagged for a closer look

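In groups of 4 arrays, the gap between the extreme array and its nearest neighbour was set against the whole range for 71 named genes and for the medians of 13 lists. Chance passes the limit in about 1 of 20 groups, and 3 of these passed it. None of the 9 inducible heat shock genes was among them. The small heat shock gene hsp-12.6, below background, stood apart on array 2 (gap 0.865 of the range), where it gave 181 against 157 to 160 on the other arrays. The arsenite-inducible gene aip-1 stood apart on array 3 (gap 0.863), with 7673 against 8781 to 8971. The median deviation of the oocyte and eggshell list stood apart on array 1 (gap 0.864), at -0.35 against 0.11 to 0.19.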

How the results depend on the processing

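All 9 inducible heat shock genes were above background under each of the 10 alternatives of the fit. Between 47.0% and 72.6% of all transcripts were above under these alternatives. The lowest value of the 9 was 1.08 on the log2 scale and their highest adjusted p was 0.0219 (limma). Both were for hsp-70 with the 99th percentile as background. The count over the 5 stress and chaperone lists, 42 of 54, lay between 39 and 48, beside those same shares of all transcripts. The median log2 range of the 9 genes, 1.77, lay between 0.63 without array 1 and 1.77 when single arrays were left out, which follows from array 1 being lowest, and between 1.38 and 1.79 under other scalings. Direction changed for 5 genes near background. These were counted among the members, the genes named by rule from the stress and chaperone lists, and those most like the members' median. Genes of the other lists, and genes named after their values were seen, were not followed one by one there. With the 99th percentile of the chemoreceptors as background hsp-12.2 lay at -0.0033. With the 75th percentile hsp-12.3, hsp-17, mtl-1 and mtl-2 lay at 0.36, 0.19, 0.69 and 0.097, and with the 25th of all genes at 0.29, 0.13, 0.62 and 0.033. These follow from where the background is set. The calls of hsp-12.1 (0.42) and slc-17.5 (0.39) ended with the 99th percentile. Of the yolk genes 4 of 6 were above the 75th percentile, where 72.6% of all transcripts were. Signal near background limits what can be said of hsp-70 on array 1.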
